A study of Zea mays with 12 samples.

Results

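The transcript of betl9 (GRMZM2G087413), a gene of the basal endosperm transfer layer, and the 60 genes whose levels followed it most closely between replicate libraries are described here, 61 genes of the 13398 whose mean level in whole maize endosperm reached 5 RPKM. RPKM counts reads by gene length and by a factor for each library, which in these values was not the number of reads assigned to genes. The genes were chosen from the values themselves: log2(RPKM + 1) was centred on the mean of each genotype, and the 60 genes with the highest Pearson correlation with betl9 over the 12 centred values were taken. How closely the genes follow betl9 within a genotype is therefore a description and was not tested, while differences between genotypes entered the choice through the floor of 5 RPKM on the mean of the 12 libraries.

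The basal endosperm transfer layer is the band of epidermal cells at the base of the kernel, where sugars and amino acids released by the mother plant enter the endosperm. Its cells carry wall ingrowths that enlarge the plasma membrane, secrete small cysteine-rich proteins, some of them antifungal, and hold a cell wall invertase that cleaves incoming sucrose. It makes up a small share of the endosperm, most of which is starchy tissue filled with starch and zein storage protein.

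Poly(A) RNA of whole endosperms was sequenced. They came from self-pollinated plants of the maize inbred line W22, grown in the field, at 16 days after pollination. The 3 genotypes, given as WT, nkd1-Ds and nkd2-Ds, had 4 biological replicates each. Ds is a maize transposon, and nkd1 and nkd2 (naked endosperm) are duplicate genes for zinc finger transcription factors that act in formation of the aleurone, the outer endosperm layer. Whether replicates came from separate plants is not given in the labels, so p-values measure the spread between these libraries. The libraries held 35.3 to 48.0 megareads in genes. In WT the nkd1 transcript had a mean of 49.2 ± 3.41 RPKM (SD over 4 libraries), and it was lower at 12.8 ± 1.08 in the libraries labelled nkd1-Ds. In nkd2-Ds libraries nkd1 was at 35.1 ± 1.57 RPKM. The nkd2 transcript averaged 19.5 ± 0.762 RPKM over the WT libraries. It was at 1.14 ± 0.141 with the nkd2-Ds label, but also at 1.10 ± 0.0780 with the nkd1-Ds label, so that nkd1-Ds below means the libraries so labelled.

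The level of betl9, in the order of replicates 1 to 4, was 492, 249, 288 and 93.1 RPKM in WT, 133, 128, 249 and 276 RPKM in nkd1-Ds, and 44.3, 237, 213 and 660.2 RPKM across nkd2-Ds. The genotypes overlapped across their whole range, and the widest spread lay within nkd2-Ds, where replicate 1 was lowest and replicate 4 highest of all 12 libraries. The same 2 libraries bounded every one of the 61 genes within nkd2-Ds, and WT replicate 4 was the lowest WT library for all 61. In WT, 57 of the 61 were highest in replicate 1. In nkd1-Ds the libraries fell into a lower and a higher pair: 33 genes were lowest in replicate 1 and 27 in replicate 2, while 35 were highest in replicate 3 and 25 in replicate 4. In bulk tissue, fewer transfer cells in a sample and less of these transcripts per cell cannot be told apart.

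**Figure D1:**
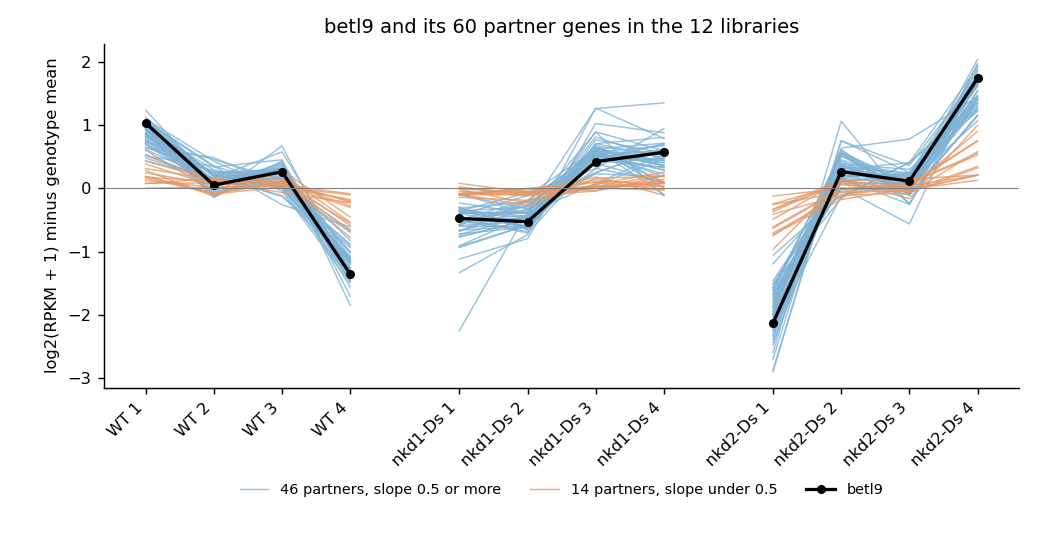
Log2(RPKM + 1) minus the genotype mean (vertical axis) in each of the 12 libraries (horizontal axis), with 1 line per gene and genotype. Black marks betl9, blue the 46 partners that change by at least 0.5 log2 units per log2 unit of betl9, and orange the 14 that change by less. Every line reaches its lowest nkd2-Ds point in replicate 1 and its highest in replicate 4.

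The spread was wide beside that of other genes. The highest library of a genotype exceeded the lowest by a median of 4.36-fold in WT, 2.35-fold in nkd1-Ds, and 14.9-fold across nkd2-Ds over the 61 genes, against 1.19-fold, 1.199-fold and 1.22-fold over the 13398 genes. The SD of the centred log2 values had a median of 0.98 in the 61 genes and 0.12 in all 13398, and 47 of the 61 were among the 100 genes of largest SD. These values come from the same deviations that chose the genes and are given without a test.

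Genes for small secreted proteins of the transfer layer made up most of the named members. Of the 61 identifiers, 40 matched the RefSeq annotation of maize B73 (assembly NAM-5.0), and 14 of those carry a gene name. A list of basal transfer layer genes matched 16 identifiers in the files, 10 of which reached 5 RPKM, and all 10 were among the 61. The members of that list were betl9, betl2, betl3, betl4, betl10, bap1b, MEG1, MEG6, mn1 and tcrr1. Of the other 6, GRMZM2G088896 (a second identifier of the RefSeq gene of MEG6, also called meg2) correlated with betl9 at r = 0.97 with a mean of 4.70 RPKM, bap1a at 0.92 with 2.83 RPKM, bap3b at 0.90 with 2.97 RPKM and bap3a at 0.90 with 0.486 RPKM. The transfer cell genes ebe1 and ebe2 had means of 0.0412 and 0.128 RPKM, with r = 0.24 and 0.77. No identifier was matched to betl1. The label of a transfer layer signal therefore rests on markers that are themselves members.

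The betl and bap genes code for small secreted proteins, and those of the bap group (basal layer antifungal proteins) include betl2, which is also named bap2. The level of betl10 was 104, 65.5, 53.7 and 21.5 RPKM in WT, 30.96, 32.7, 63.8 and 59.01 RPKM in nkd1-Ds, and 7.14, 41.98, 37.5 and 91.9 RPKM across nkd2-Ds. For betl2 it was 106, 57.7, 45.6 and 21.3 RPKM in WT, 23.5, 18.4, 43.4 and 37.8 RPKM in nkd1-Ds, and 8.89, 40.9, 30.2 and 85.7 RPKM across nkd2-Ds. The levels of betl10 followed betl9 with r = 0.990 and those of betl2 with r = 0.980, and the genotypes overlapped for both genes.

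For betl4 the values were 53.4, 29.01, 29.3 and 12.5 RPKM in WT, 15.9, 17.3, 46.5 and 39.97 RPKM in nkd1-Ds, and 4.31, 38.5, 26.9 and 82.2 RPKM across nkd2-Ds. The gene betl3 stood at 29.5, 17.3, 17.5 and 6.66 RPKM in WT, 4.33, 5.53, 10.6 and 8.68 RPKM in nkd1-Ds, and 1.62, 12.1, 9.34 and 22.7 RPKM across nkd2-Ds. The antifungal gene bap1b was measured at 4.79, 2.69, 3.24 and 0.751 RPKM in WT, 6.27, 4.697, 11.7 and 11.1 RPKM in nkd1-Ds, and 1.52, 12.5, 13.4 and 27.6 RPKM across nkd2-Ds. The r with betl9 was 0.982 for betl4, 0.986 for betl3 and 0.983 for bap1b. Unlike betl3 and betl4, bap1b was lower in all 4 WT libraries than in nkd2-Ds replicates 2 to 4, but nkd2-Ds replicate 1 lay within the WT range.

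MEG1 (maternally expressed gene 1) codes for a cysteine-rich peptide made in transfer cells from the maternal allele early in kernel development, and MEG6 belongs to the same family. MEG1 was at 13.5, 8.17, 6.896 and 2.63 RPKM in WT, 4.03, 3.05, 6.06 and 4.65 RPKM in nkd1-Ds, and 0.553, 4.54, 4.71 and 10.5 RPKM across nkd2-Ds. MEG6 was at 12.9, 7.57, 9.01 and 2.51 RPKM in WT, 2.62, 2.38, 5.22 and 4.8004 RPKM in nkd1-Ds, and 1.23, 8.52, 5.18 and 13.7 RPKM across nkd2-Ds. Both reached their lowest level in nkd2-Ds replicate 1, where MEG1 rested on 9 reads and MEG6 on 22.

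The gene mn1 (miniature1) codes for the cell wall invertase of the transfer layer, and kernels without it stay small. Its level was 33.1, 16.1, 28.9 and 6.08 RPKM in WT, 7.67, 9.35, 17.2 and 27.2 RPKM in nkd1-Ds, and 1.33, 14.1, 11.01 and 44.3 RPKM across nkd2-Ds. From the lowest to the highest nkd2-Ds library mn1 spanned 33.2-fold, more than the 14.9-fold of betl9, and the slope of mn1 on betl9 over the centred values was 1.09 log2 units per log2 unit. Of 11 genes of sucrose cleavage and transport on a list, mn1 was the only member. The sucrose synthase gene sus2 and the sucrose transporter gene sut1 correlated with betl9 at 0.87 and 0.88, and sh1, the main sucrose synthase gene of the starchy endosperm, at -0.77.

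The gene tcrr1 codes for a transfer cell response regulator, a receiver protein of the two-component pathway that also carries cytokinin signals. Its level was 15.2, 6.98, 9.72 and 2.299 RPKM in WT, 2.02, 2.19, 6.12 and 6.63 RPKM in nkd1-Ds, and 0.8398, 4.67, 3.24 and 13.7 RPKM across nkd2-Ds, with r = 0.972. It was the sole member among 15 matched genes of cytokinin metabolism and two-component signalling. The other 14 had r between -0.60 and 0.61.

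BURP6 and BURP7 code for proteins with a BURP domain, a plant domain found in secreted and cell wall proteins. BURP6 was the most abundant of the 61 per length, at 1877, 950.0, 1235 and 338 RPKM in WT, 355, 454, 1109.8 and 1189.8 RPKM in nkd1-Ds, and 125, 855, 803 and 2463 RPKM across nkd2-Ds. It took 0.143% of all reads in WT replicate 1, against 0.0201% for betl9. BURP7 stood at 68.2, 56.3, 44.7 and 15.6 RPKM in WT, 13.7, 17.4, 64.1 and 57.9 RPKM in nkd1-Ds, and 4.498, 61.5, 67.9 and 108 RPKM across nkd2-Ds. The genes lie 8 positions apart in the RefSeq gene order, and their centred values correlated at 0.96.

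The 10 genes that followed betl9 most closely included betl10 and BURP6, with 8 others known here only by identifier. GRMZM5G897740 (r = 0.995) stood at 57.3, 30.6, 31.6 and 12.9 RPKM in WT, 17.8, 14.6, 31.01 and 31.8 RPKM in nkd1-Ds, and 5.88, 29.9, 28.2 and 93.3 RPKM across nkd2-Ds. GRMZM2G406552 (r = 0.994) was as abundant as betl9, at 509, 279.6, 303 and 117 RPKM in WT, 135, 127, 256 and 214 RPKM in nkd1-Ds, and 62.01, 252, 248 and 577 RPKM across nkd2-Ds. The 3 genes of highest level per length, by their means over the 12 libraries, were thus BURP6, GRMZM2G406552 and betl9, at 979.5, 257 and 255 RPKM.

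GRMZM2G107199 (r = 0.993) was measured at 24.9, 13.5, 13.97 and 3.57 RPKM in WT, 3.77, 4.901, 9.795 and 11.95 RPKM in nkd1-Ds, and 1.599, 10.9, 10.6 and 30.6 RPKM across nkd2-Ds. GRMZM2G360529 (r = 0.992) was at 11.4, 6.29, 7.26 and 1.51 RPKM in WT, 2.02, 2.42, 4.15 and 5.58 RPKM in nkd1-Ds, and 0.554, 5.07, 4.13 and 14.2 RPKM across nkd2-Ds. GRMZM2G009854 (r = 0.991) was at 22.2, 12.3, 14.1 and 3.86 RPKM in WT, 3.24, 2.57, 6.76 and 6.39 RPKM in nkd1-Ds, and 1.157, 8.196, 6.91 and 32.4 RPKM across nkd2-Ds. In all 3, nkd1-Ds replicates 3 and 4 were higher than replicates 1 and 2, as for betl9, and the genotypes overlapped.

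GRMZM2G132162 (r = 0.990) stood at 43.3, 23.9, 29.5 and 9.74 RPKM in WT, 11.6, 11.5, 29.4 and 26.6 RPKM in nkd1-Ds, and 1.704, 18.5, 14.7 and 60.9 RPKM across nkd2-Ds. GRMZM2G158407 (r = 0.990) stood at 46.6, 25.8, 22.6 and 8.43 RPKM in WT, 10.6, 9.37, 26.1 and 22.2 RPKM in nkd1-Ds, and 1.85, 12.1, 12.4 and 35.3 RPKM across nkd2-Ds. GRMZM2G010762 (r = 0.987) stood at 11.99, 7.29, 9.29 and 2.799 RPKM in WT, 6.03, 5.46, 13.9 and 13.95 RPKM in nkd1-Ds, and 1.76, 15.9, 12.04 and 47.4 RPKM across nkd2-Ds. GRMZM2G158407 differed from the other 2 in its highest library, which was WT replicate 1 and not nkd2-Ds replicate 4.

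The partners fell into 2 kinds by how far they moved. The slope on betl9 was at least 0.62 in 46 partners, with a median of 0.86, and at most 0.47 in the other 14, and no partner lay between. This division at 0.5 was chosen after the slopes had been seen. Of the 40 closest partners 39 were steep, and of the 20 ranked 41 to 60, 13 were flat. All named transfer layer genes were steep, as were BURP6 and BURP7, while bz2 and IDI2 were flat. Correlations between pairs of the 61 genes had a median of 0.94 and were lowest at 0.67.

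**Figure D2:**
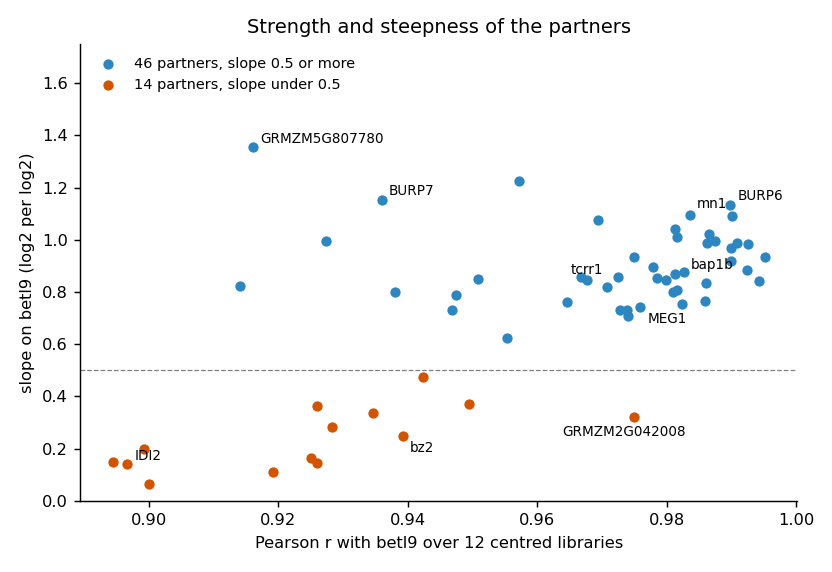
Slope on betl9 in log2 units per log2 unit (vertical axis) against Pearson r with betl9 over the 12 centred libraries (horizontal axis), 1 point per partner gene. The dashed line is the division at 0.5: 46 partners lie above it and 14 below, of which GRMZM2G042008 alone has r over 0.951.

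The 5 members of largest centred SD were GRMZM5G807780, GRMZM5G854277, BURP7, BURP6 and mn1. GRMZM5G807780, the steepest at 1.36 log2 units per log2 unit, stood at 114, 50.7, 62.9 and 14.03 RPKM in WT, 6.56, 26.9, 85.3 and 90.7 RPKM in nkd1-Ds, and 4.302, 65.7, 49.9 and 135 RPKM across nkd2-Ds. GRMZM5G854277, with a slope of 1.23, stood at 46.2, 23.6, 24.6 and 6.34 RPKM in WT, 6.43, 10.3, 44.01 and 31.3 RPKM in nkd1-Ds, and 1.62, 27.6, 19.2 and 53.7 RPKM across nkd2-Ds. In nkd1-Ds, both had replicates 1 and 2 below WT replicates 1 to 3, and replicates 3 and 4 within the WT range. Replicate 1 of nkd1-Ds was also below WT replicate 4 for GRMZM5G807780.

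The edge of the set was not marked by a gap. The last 2 partners, IDI2 and GRMZM2G081970, had r = 0.897 and 0.894, and the next 2 genes, GRMZM5G873767 and GRMZM2G004878, had 0.888 and 0.888. Over 0.95 there were 40 genes, over 0.9 there were 57 and over 0.8 there were 118 of 13397, while 224 lay under -0.8 and the median was -0.12. Within single genotypes the median r of the 60 partners was 0.989 in WT as in nkd2-Ds and 0.949 in nkd1-Ds, each over 4 libraries. The order of the 4 libraries was that of betl9 for 37 partners in WT, 9 in nkd1-Ds, 43 in nkd2-Ds, and for 5 in all of them. The lowest r was 0.758 in WT and 0.912 in nkd2-Ds, while in nkd1-Ds it was -0.18, for IDI2.

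Depth limits the low end. Of the 61 genes, 19 had at least 100 reads in every library and 15 had under 20 in some library. The fewest were 8 reads, for GRMZM2G107931 in nkd2-Ds replicate 1. Every genotype mean was at least 5 RPKM in 45 of the genes. The other 16 passed the floor through the level in part of the genotypes. For 7 of them the mean over the other genotypes was under 5 RPKM, so that their level in 1 genotype decided membership: WT for MEG1, tcrr1, GRMZM2G107931, GRMZM2G360529 and GRMZM2G402156, nkd1-Ds for GRMZM2G081970 and nkd2-Ds for bz2. These genes had to be high in that genotype to be counted, and no test of that difference is given for them. The rest of the 16 were under 5 RPKM in 1 genotype and passed through the other 2. Among them were bap1b and GRMZM2G058703, at WT means of 2.87 and 4.77 RPKM. Others were GRMZM2G060079 and IDI2, at nkd1-Ds means of 3.08 and 3.81 RPKM. In all of these the floor favoured a difference from the genotype where they are low.

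Several members are neighbours in the RefSeq gene order. GRMZM2G115340 and GRMZM2G179248 belong to 1 RefSeq gene and correlated at 0.9997, so that their reads may be the same and they count as 2 identifiers of 1 locus. GRMZM2G010152 lies 3 genes from that locus. GRMZM2G344323, which matches 2 RefSeq genes of which 1 is annotated as a pseudogene, lies 3 genes from MEG6 and 6 from MEG1. GRMZM5G843972 and GRMZM2G107302 lie 10 genes apart. How the authors' counting split reads between the near-identical members of such families is not stated in the labels, and levels of single betl, bap and MEG copies are uncertain to that extent.

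The 61 genes together took 0.316, 0.1699, 0.178 and 0.0631% of the reads in WT replicates 1 to 4, 0.123, 0.141, 0.291 and 0.284% in nkd1-Ds, with 0.0339, 0.169, 0.177 and 0.481% in nkd2-Ds. Genes for zeins, the main storage proteins of the endosperm, had the opposite sign. All 9 matched zein genes had negative correlations with betl9 over the centred values, from -0.39 to -0.88. They took 11.7, 11.5, 11.5 and 12.2% of the reads in WT, 10.8, 10.01, 9.97 and 10.3% in nkd1-Ds, with 14.9, 12.97, 12.8 and 12.6% in nkd2-Ds. In WT and nkd2-Ds the library with the least betl9 had the largest zein share. Depth moved with betl9 as well. The centred values of betl9 correlated at -0.83 with the zein share and at -0.82 with the number of reads per library, over the same 12 libraries. WT replicate 4 and nkd2-Ds replicate 1, where all 61 genes were lowest within their genotype, were the 2 deepest libraries, at 48.0 and 47.4 megareads. The parts of the zein level and of depth in the spread of betl9 were not tested.

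**Figure D3:**
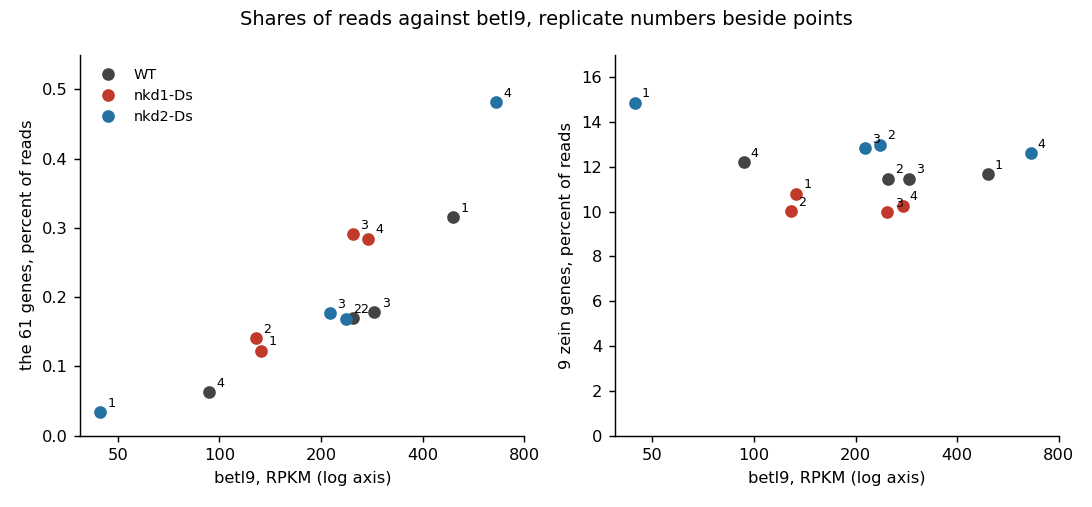
Percent of all reads taken by the 61 genes (left) and by 9 zein genes (right) against the betl9 level in RPKM on a log axis, 1 point per library with its replicate number. The share of the 61 genes is 0.0339% in the library with the least betl9 and 0.481% in that with the most, and the zein share is highest, 14.9%, in the library with the least betl9.

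Markers of neighbouring cell types had lower correlations with betl9, esr6 apart. Of 5 matched genes of the embryo-surrounding region, the tissue around the young embryo, esr6 had r = 0.94 at a mean of 2.03 RPKM and esr2 had r = 0.65, and the summed level of the 5 ran from 2.14 to 6.49 RPKM in WT, 3.32 to 7.01 RPKM in nkd1-Ds, and 0.325 to 19.6 RPKM across nkd2-Ds. The lowest sum was again in nkd2-Ds replicate 1 and the highest in replicate 4. Of 13 aleurone genes, 1 (vp1) had r over 0.8. The 14 genes of the starchy endosperm list had r from -0.69 to 0.44. Embryo markers summed to 7.64 to 14.6 RPKM and those of photosynthesis in the pericarp to 1.25 to 2.46 RPKM over the 12 libraries, and none of these had r over 0.8. The part of embryo-surrounding tissue in the spread of the 61 genes was not tested.

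Genotype differences were tested with limma on log2(RPKM + 1) over 26706 genes, calling a gene where p adjusted by Benjamini-Hochberg was under 0.05, and all 61 genes entered the fit. For betl9 the difference was -0.37 ± 0.67 (estimate ± SE, log2) in nkd1-Ds against WT, -0.28 ± 0.67 in nkd2-Ds against WT and 0.09 ± 0.67 in nkd2-Ds against nkd1-Ds, with limma adjusted p = 0.662, 0.7999 and 0.932. None of these was larger than the spread between replicates. For mn1 they were -0.36 ± 0.75, -0.67 ± 0.75 and -0.32 ± 0.75, with limma adjusted p = 0.709, 0.556 and 0.764. The 2 comparisons with WT share its 4 libraries.

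In nkd1-Ds against WT, limma called 14 of the 61 genes, 7 higher and 7 lower, where 55.7% of all genes tested were called, 26.5% higher and 29.2% lower. In nkd2-Ds against WT it called 4, all higher, where 25.5% of all genes were called, 12% higher and 13.6% lower. In nkd2-Ds against nkd1-Ds it called 8, 4 higher and 4 lower, where 41.8% of all genes were called, 21.6% higher and 20.2% lower. Without the 7 genes whose level in 1 genotype decided membership, 11, 2 and 7 of 54 were called, a count made after seeing the data. Most calls fell on flat members. Of the 14 flat genes, 10, 4 and 8 were called in these comparisons, and of betl9 with its 46 steep partners, 4, 0 and 0. At an unadjusted p under 0.05 limma had 6, 4 and 0 of those 47. The median SE of the 47 was 0.60 log2 units against 0.17 for the 14 flat genes and 0.10 for all genes. The deviations that chose the genes are the spread against which limma tests them. A low slope on betl9 goes with a small spread, so the split of calls between flat and steep genes followed in part from their definition.

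For most of the 47 steep genes the estimate lay below WT in both mutants without passing the test. It was below 0 for 41 of the 47 in nkd1-Ds and for 41 in nkd2-Ds, with medians of -0.45 and -0.41 against -0.02 and -0.01 over all genes. Without the steep genes whose WT level decided membership, it was below 0 for 36 of 42 in each mutant. The genes were chosen for moving together, so these counts are not separate pieces of evidence. Rescaling to the total of assigned reads moved the median of all genes to 0.42 in nkd1-Ds and 0.12 in nkd2-Ds. After it, 23 of the 47 were below 0 in nkd1-Ds and 35 in nkd2-Ds, with medians of 0.03 and -0.21. Without nkd2-Ds replicate 1, 14 of the 47 were below 0 in nkd2-Ds, with a median of 0.17, and without WT replicate 1, 28 were, with a median of -0.11. In nkd1-Ds, leaving out single libraries kept 35 to 44 of the 47 below 0, and of the settings tried only the rescaling changed the direction. The direction therefore depended on the scaling in nkd1-Ds and on replicate 1 in nkd2-Ds. It was not tested for the genes as a set. Of the 13 tested genes on the transfer layer list, limma called 1, bap3b, lower in nkd1-Ds (-1.08 ± 0.43, limma adjusted p = 0.0471), and 0 in nkd2-Ds against WT or nkd1-Ds. The other 9 list members beside betl9 had estimates of -1.08 to 1.33 in nkd1-Ds and -0.81 to 1.61 in nkd2-Ds.

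**Figure D4:**
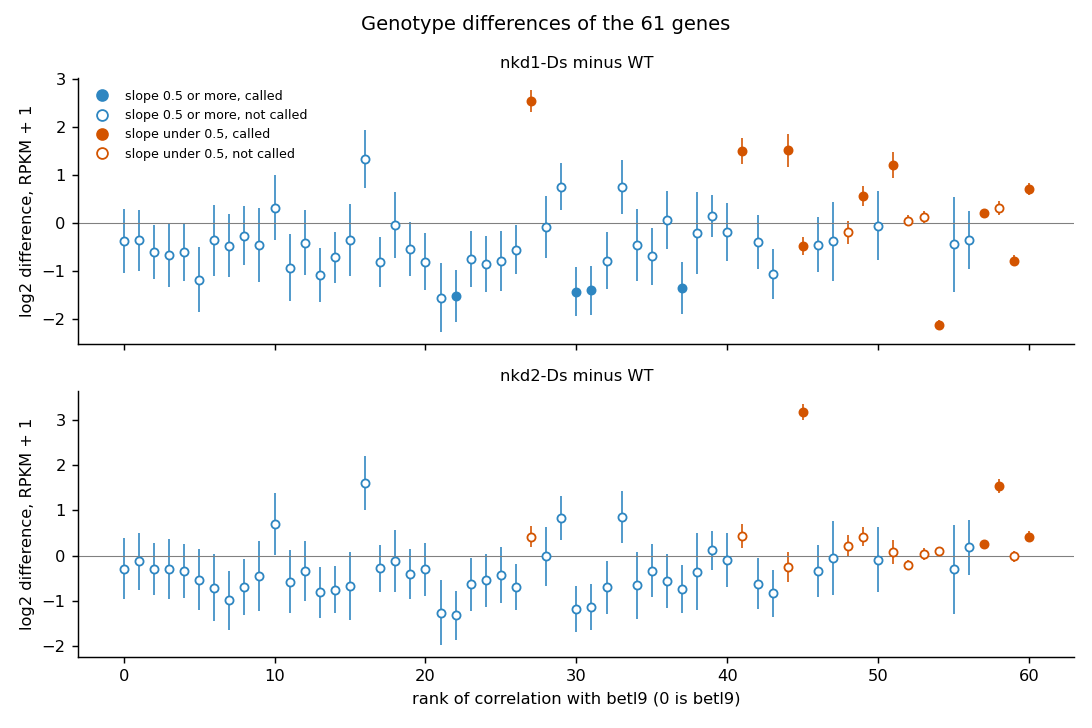
Difference in log2(RPKM + 1) from WT for nkd1-Ds (top) and nkd2-Ds (bottom) of the 61 genes in the order of their correlation with betl9, with bars of 1 SE. Filled points are called at a limma adjusted p under 0.05; blue marks betl9 and steep partners, and orange flat partners. The bars of blue points are long and 4 of them are called in nkd1-Ds, while orange points have short bars and 10 are called in nkd1-Ds and 4 in nkd2-Ds.

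The steep members called in nkd1-Ds were all lower there. GRMZM2G107931 stood at 16.5, 11.5, 12.8 and 4.67 RPKM in WT, 1.69, 2.36, 4.65 and 4.01 RPKM in nkd1-Ds, and 0.446, 3.56, 3.67 and 13.4 RPKM across nkd2-Ds, a difference of -1.52 ± 0.55 log2 units between nkd1-Ds and WT, and of -1.32 ± 0.55 between nkd2-Ds and WT, given without a p since its WT level decided membership. All 4 nkd1-Ds libraries were below the lowest WT library, which was replicate 4, where all 61 genes were lowest within WT.

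GRMZM2G115340 stood at 52.5, 34.4, 33.6 and 16.4 RPKM in WT, 7.56, 7.81, 17.7 and 14.6 RPKM in nkd1-Ds, and 3.77, 20.3, 12.5 and 31.4 RPKM across nkd2-Ds, with differences from WT of -1.43 ± 0.51 and -1.17 ± 0.51 (limma adjusted p = 0.0285 and 0.109). GRMZM2G179248, of the same RefSeq gene, stood at 52.5, 32.8, 31.995 and 16.4 RPKM in WT, 7.47, 7.76, 17.7 and 14.5 RPKM in nkd1-Ds, and 3.77, 20.3, 12.5 and 31.4 RPKM across nkd2-Ds, with differences of -1.40 ± 0.51 and -1.14 ± 0.51 (limma adjusted p = 0.0312 and 0.12003). GRMZM2G344323 stood at 20.9, 12.9, 14.6 and 8.05 RPKM in WT, 3.303, 2.69, 7.81 and 6.24 RPKM in nkd1-Ds, and 1.3003, 10.2, 9.62 and 19.1 RPKM across nkd2-Ds, with differences of -1.35 ± 0.53 and -0.74 ± 0.53 (limma adjusted p = 0.0447 and 0.342). For the first 2 of these, nkd1-Ds replicate 3 lay above WT replicate 4, and for GRMZM2G344323 WT and nkd1-Ds did not overlap. None of the 4 calls held in every other setting tried, and without WT replicate 1, 2 or 3, or nkd1-Ds replicate 1 or 2, limma called 0 of the 47 in nkd1-Ds against WT.

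Of the 14 flat members, 11 were called in at least 1 comparison. GRMZM2G042008 stood at 14.4, 11.1, 12.03 and 6.84 RPKM in WT, 62.3, 62.1, 71.96 and 71.05 RPKM in nkd1-Ds, and 9.16, 14.5, 15.7 and 22.1 RPKM across nkd2-Ds. It rose by 2.53 ± 0.23 log2 units in nkd1-Ds (limma adjusted p = 9.22e-07) and was 2.11 units lower in nkd2-Ds than in nkd1-Ds (-2.11 ± 0.23, limma adjusted p = 1.13e-05). The 4 nkd1-Ds libraries lay above every other library.

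GRMZM2G307992 was at 17.8, 14.2, 13.8 and 7.83 RPKM in WT, 35.98, 38.2, 40.9 and 37.6 RPKM in nkd1-Ds, and 10.2, 17.3, 18.5 and 30.7 RPKM across nkd2-Ds, with differences of 1.49 ± 0.27 in nkd1-Ds against WT and -1.05 ± 0.27 in nkd2-Ds against nkd1-Ds (limma adjusted p = 0.000364 and 0.006701). GRMZM2G108849 was at 10.8, 7.84, 7.82 and 3.78 RPKM in WT, 22.2, 20.95, 25.3 and 20.5 RPKM in nkd1-Ds, and 2.52, 6.48, 5.14 and 12.7 RPKM across nkd2-Ds, with differences of 1.51 ± 0.34 and -1.76 ± 0.34 (limma adjusted p = 0.00207 and 0.001198). GRMZM2G091578 was at 29.1, 25.5, 28.6 and 16.5 RPKM in WT, 54.3, 56.7, 58.9 and 60.97 RPKM in nkd1-Ds, and 15.2, 22.8, 25.8 and 49.2 RPKM across nkd2-Ds, with differences of 1.21 ± 0.27 and -1.13 ± 0.27 (limma adjusted p = 0.00176 and 0.00442). Like GRMZM2G042008, these 3 genes were highest in nkd1-Ds, in all 4 libraries above all WT and nkd2-Ds libraries.

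GRMZM2G060079 moved the opposite way between genotypes, at 18.8, 15.7, 16.98 and 15.5 RPKM in WT, 3.15, 2.79, 3.08 and 3.299 RPKM in nkd1-Ds, and 15.03, 18.8, 17.7 and 20.9 RPKM across nkd2-Ds. The difference was -2.12 ± 0.09 in nkd1-Ds against WT and 2.22 ± 0.09 in nkd2-Ds against nkd1-Ds (limma adjusted p = 1.3e-09 and 2.16e-09). Its nkd1-Ds libraries lay far below the rest, yet within each genotype its values followed betl9 with a slope of 0.11. IDI2 was likewise lower in nkd1-Ds, at 8.44, 6.89, 7.67 and 6.21 RPKM in WT, 4.08, 3.61, 3.82 and 3.72 RPKM in nkd1-Ds, and 5.36, 7.85, 7.43 and 8.49 RPKM across nkd2-Ds, with differences of -0.78 ± 0.12 and 0.77 ± 0.12 (limma adjusted p = 9.14e-05 and 0.000215). The fall of IDI2 from WT was not called after rescaling to total reads, at -0.31 (limma adjusted p = 0.110).

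The gene bz2 (bronze2) codes for a glutathione transferase that takes part in bringing anthocyanin into the vacuole. Its level was 0.881, 0.997, 0.864 and 0.4498 RPKM in WT, 0.215, 0.211, 0.419 and 0.318 RPKM in nkd1-Ds, and 9.605, 15.1, 16.1 and 22.3 RPKM across nkd2-Ds. The 4 nkd2-Ds libraries lay far above the others, 3.18 ± 0.19 log2 units from WT. This difference is a description, since bz2 passed the floor of 5 RPKM through nkd2-Ds, and it is 1 of the 4 calls counted there. Within nkd2-Ds, bz2 was lowest in replicate 1 and highest in replicate 4, 2.32-fold apart.

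GRMZM2G177792 was also highest in nkd2-Ds, at 6.48, 6.11, 5.31 and 4.64 RPKM in WT, 6.71, 5.798, 8.16 and 8.37 RPKM in nkd1-Ds, and 12.6, 19.8, 20.2 and 21.1 RPKM across nkd2-Ds, with differences of 1.53 ± 0.15 from WT and 1.22 ± 0.15 from nkd1-Ds (limma adjusted p = 8.63e-06 and 4.99e-05). GRMZM2G081970 stood at 3.82, 3.83, 3.88 and 2.77 RPKM in WT, 5.93, 6.43, 6.29 and 7.23 RPKM in nkd1-Ds, and 4.12, 4.84, 4.96 and 6.77 RPKM across nkd2-Ds, with differences from WT of 0.71 ± 0.12 in nkd1-Ds, through which it passed the floor, and 0.42 ± 0.12 in nkd2-Ds (limma adjusted p = 0.0232 for nkd2-Ds). The latter call was lost without WT replicate 4 or nkd2-Ds replicate 4, and with only the 8 libraries compared (limma adjusted p up to 0.0718). GRMZM2G152457 stood at 9.09, 9.18, 9.47 and 8.48 RPKM in WT, 10.04, 10.2, 10.9 and 11.3 RPKM in nkd1-Ds, and 10.04, 11.03, 10.9 and 12.1 RPKM across nkd2-Ds, with differences from WT of 0.21 ± 0.07 and 0.26 ± 0.07 (limma adjusted p = 0.0163 and 0.0123). Its call in nkd1-Ds was lost without WT replicate 4 or nkd1-Ds replicate 4 (limma adjusted p up to 0.0521), and that in nkd2-Ds after rescaling to total reads (limma adjusted p = 0.0533). For all 3, the 4 nkd2-Ds libraries lay above the 4 WT libraries.

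The remaining calls in nkd1-Ds were bz2 (-0.47 ± 0.19, limma adjusted p = 0.0466) and GRMZM2G466545 (0.56 ± 0.21, limma adjusted p = 0.0372), both close to the threshold. The first was lost in 11 of 15 other settings, with estimates from -1.42 to -0.25 and limma adjusted p up to 0.333. The second was lost in 5 of 15, with estimates from 0.38 to 0.98 and limma adjusted p up to 0.119. The flat genes without a call in any comparison were GRMZM2G010152, GRMZM2G116330 and GRMZM2G137954, with estimates between -0.25 and 0.41 log2 units over the 3 comparisons.

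Since the steep genes rise and fall together, their levels were also set beside betl9 within each library, as a percent of its RPKM. Such a ratio is the same under any scaling of a whole library. It takes out the shared spread fully only at a slope of 1, and the slopes of the partners ran from 0.06 to 1.36. In flat partners the ratio carries part of the spread of betl9 with its sign turned. As betl9 chose the genes, the ratios are given without a test, as the number of partners whose 4 libraries in 1 genotype do not overlap those of another, beside the same over 13352 genes with a value above 0 in every library. In nkd1-Ds against WT, 9 of 60 partners were higher and 15 lower, where 2.1% and 0.786% of all genes were. In nkd2-Ds against WT, 5 were higher and 11 lower, where 0.292% and 0.27% of all genes were. In nkd2-Ds against nkd1-Ds, 3 were higher and 5 lower, where 0.352% and 0.277% of all genes were. Genes that follow betl9 with a slope near 1 have narrow ratios by the way they were chosen, so nothing is read from the share of the partners against that of all genes.

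The largest shift among steep partners was that of bap1b, which stood at 0.973%, 1.08%, 1.13% and 0.806% in WT, 4.71%, 3.66%, 4.71% and 4.03% in nkd1-Ds, and 3.42%, 5.26%, 6.28% and 4.18% across nkd2-Ds of betl9. The mean ratio ± SD of 4 libraries was 0.997 ± 0.143% for WT, 4.28 ± 0.521% for nkd1-Ds and 4.79 ± 1.251% for nkd2-Ds. All 8 mutant libraries lay above all 4 WT libraries, with no overlap. On the level itself, the difference of bap1b from WT was 1.33 ± 0.60 in nkd1-Ds and 1.61 ± 0.60 in nkd2-Ds, neither of them called. Without nkd2-Ds replicate 1, the difference in nkd2-Ds was 2.32 ± 0.40. As bap1b passed the floor of 5 RPKM through the mutants, with a WT mean of 2.87 RPKM, these differences are a description. The gene bap1a, outside the set, lay the other way, at means of 4.98, 1.82 and 1.69 RPKM in WT, nkd1-Ds and nkd2-Ds. Its differences from WT were -0.96 ± 0.42 and -1.12 ± 0.42, neither of them called (limma adjusted p = 0.0657 and 0.0659). The split of reads between bap1a and bap1b was not tested.

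GRMZM2G058703 had means of 1.92 ± 0.524%, 4.51 ± 0.633% and 4.34 ± 0.618% of betl9 in WT, nkd1-Ds and nkd2-Ds. GRMZM2G121137 stood at 2.58 ± 0.281%, 6.19 ± 1.41% and 6.01 ± 1.26%. GRMZM2G010762 stood at 2.901 ± 0.334%, 4.86 ± 0.593% and 5.88 ± 1.42%. With bap1b, these 4 were the steep partners whose ratio to betl9 was above that of WT in both mutants without overlap. For bap1b and GRMZM2G058703, whose WT means were under the floor of 5 RPKM, high levels in the mutants were needed for membership. GRMZM5G839794 joined them in nkd1-Ds alone.

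Ratios fell below those of WT, without overlap, for 13 steep partners in nkd1-Ds and 11 in nkd2-Ds. Those below in both were betl3, tcrr1, GRMZM2G175101, GRMZM2G107931 and the locus of GRMZM2G115340 and GRMZM2G179248. GRMZM2G107931 stood at 3.36%, 4.63%, 4.45% and 5.02% in WT, 1.27%, 1.84%, 1.87% and 1.46% in nkd1-Ds, and 1.01%, 1.502%, 1.72% and 2.03% across nkd2-Ds of betl9. GRMZM2G175101 had means of 11.5 ± 1.35%, 4.77 ± 1.13% and 5.31 ± 1.69% in WT, nkd1-Ds and nkd2-Ds, and GRMZM2G115340 of 13.5 ± 3.09%, 6.04 ± 0.796% and 6.92 ± 1.91%. These 3 stood at less of betl9 in each of the 8 mutant libraries than in any WT library.

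Among the named genes, betl3 stood at 5.99%, 6.94%, 6.07% and 7.15% in WT, 3.25%, 4.31%, 4.27% and 3.15% in nkd1-Ds, and 3.65%, 5.12%, 4.38% and 3.44% across nkd2-Ds of betl9. The response regulator gene tcrr1 stood at 3.09%, 2.81%, 3.38% and 2.47% in WT, 1.52%, 1.704%, 2.46% and 2.41% in nkd1-Ds, and 1.89%, 1.97%, 1.52% and 2.08% across nkd2-Ds. Its WT and nkd1-Ds libraries were barely apart, at 2.47% in WT replicate 4 against 2.46% in nkd1-Ds replicate 3. MEG6 was lower without overlap in nkd1-Ds only, at 2.87 ± 0.254%, 1.92 ± 0.155% and 2.72 ± 0.652% in WT, nkd1-Ds and nkd2-Ds. MEG1 was lower in nkd2-Ds only, at 2.82 ± 0.367%, 2.38 ± 0.549% and 1.74 ± 0.415%, and so was betl10, at 22.3 ± 3.24%, 23.95 ± 2.01% and 16.3 ± 1.78%. For tcrr1 and MEG1, as for GRMZM2G107931, a high WT level was needed for membership. That a gene was apart in 1 mutant and not in the other was not tested as a difference between them.

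The ratio of mn1 to betl9 overlapped between all genotypes, at 6.71%, 6.495%, 10.04% and 6.53% in WT, 5.76%, 7.29%, 6.93% and 9.89% in nkd1-Ds, and 3.01%, 5.97%, 5.17% and 6.703% across nkd2-Ds. So did those of betl4 (11.5 ± 1.38%, 14.7 ± 2.89% and 12.8 ± 2.68%), betl2 (20.9 ± 3.43%, 15.8 ± 2.06% and 16.1 ± 3.18%), BURP6 (389 ± 28.3%, 375 ± 82.7% and 348 ± 44.9%) and BURP7 (17.2 ± 3.82%, 17.7 ± 7.01% and 21.1 ± 9.68%).

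**Figure D5:**
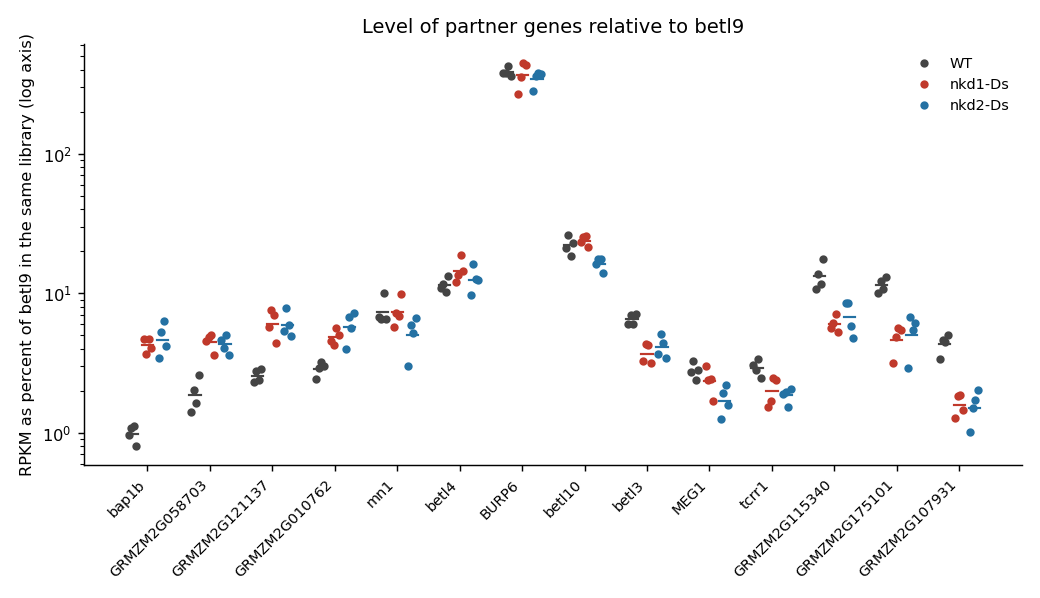
RPKM of 14 partner genes as a percent of betl9 in the same library (vertical log axis), 1 point per library, with bars at the mean of the log values. The mutant libraries of bap1b, GRMZM2G058703, GRMZM2G121137 and GRMZM2G010762 all lie above WT, those of betl3, tcrr1, GRMZM2G115340, GRMZM2G175101 and GRMZM2G107931 all lie below, and those of mn1, betl4 and BURP6 overlap WT.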

How the data were processed

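The values are RPKM per gene as deposited by the authors, 1 table of 34348 genes per library, a unit judged from the values, as each header holds just a sample name. The submitters' processing notes list TopHat2 2.1.1, Cufflinks 2.2.1, featureCounts and FastQC, without their roles. Libraries were made with a stranded poly(A) kit, per the labels' protocols. No genome build or strand setting of the counting is given in the sources used here. Reads of genes that overlap, or lie antisense to each other, may therefore be mixed.

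Whole reads were recovered from the steps between values for all 34307 genes above 0, within 0.001 reads, with 2 of 500 control genes shifted by 0.1% also coming out whole. They summed to 35.3 to 48.0 megareads per library and serve for depth and for limma voom as an alternative. The library factor held in the RPKM values was 27.3 to 31.1 megareads in WT, 34.3 to 40.5 in nkd1-Ds and 27.8 to 30.9 in nkd2-Ds. It thus differed between genotypes otherwise than depth did, and its origin was not tested. Replicates differed beyond sampling noise (8.04 to 85.9 in chi-square per gene), and each was kept as its own sample. Groups and replicate numbers came from the labels.

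The members were chosen as the report describes. Members and gene lists were chosen with earlier results of these data known. The lists cover the basal transfer layer, embryo-surrounding region, aleurone, zeins, starchy endosperm, embryo, photosynthesis in the pericarp, sugar cleavage and transport, and cytokinin with two-component signalling, matched by symbol to RefSeq (15236 identifiers of the tables matched). Genotypes were compared by limma 3.58.1 under R 4.3.3, two-sided, on log2(RPKM + 1) with a trend of the variance on the mean. The 26706 genes tested reached a mean of 1 RPKM in some genotype. All 12 libraries entered, with genotype as the only factor. Differences on this scale understate those of low genes. The steps were tested on simulated data. Slopes are least-squares slopes of centred values on those of betl9.

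Any of the 61 genes could be named. Values in every library are given for betl9, mn1, members on the transfer layer list, the 10 closest partners, the 5 of largest SD, and up to 5 called rises and 5 called falls per comparison. Values of GRMZM2G466545, GRMZM2G058703, GRMZM2G121137 and GRMZM2G175101, outside that rule, are given for their calls or ratios after these were seen. Alternatives were another pseudocount, filter, scaling, test and set of libraries, a replicate block, and each library left out.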

Additional observations from a re-analysis of the deposited data

Results flagged for a closer look

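Within the genotypes, 189 groups of 4 values were looked at for a library far from the other 3, by Dixon's test at the 95% level, and 3 were found. Chance gives about 1 in 20, which is more than were found. The values of the 61 genes are those that chose them and move together, so the flags are a description. GRMZM2G177792 was at 12.6 RPKM in nkd2-Ds replicate 1, far below the other nkd2-Ds libraries. GRMZM2G081970 was at 2.77 RPKM in WT replicate 4, far below the other WT libraries. The 9 zein genes took 14.9% of reads in nkd2-Ds replicate 1, far above the other nkd2-Ds libraries. These are the libraries in which all 61 genes were lowest within their genotype.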

How the results depend on the processing

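Of the 60 partners, 60 were taken again with a pseudocount of 0.1 RPKM, 50 with Spearman's correlation, 51 after scaling by total reads, 58 after quantile normalization, 46 to 51 without nkd1-Ds or WT, 43 without nkd2-Ds, 52 to 58 without single libraries and 57 with mn1 in place of betl9, a setting chosen after seeing the data. With a floor of 1 RPKM 37 were taken again, as more genes compete for 60 places. Scaling by total reads turned the betl9 difference to 0.17 in nkd1-Ds against WT and to -0.29 in nkd2-Ds against nkd1-Ds, and moved the median of all genes to 0.42, 0.12 and -0.29 in the 3 comparisons. Without single libraries the betl9 difference ran from -0.82 to -0.03 in nkd1-Ds against WT, from -0.86 to 0.42 in nkd2-Ds against WT and from -0.49 to 0.80 in nkd2-Ds against nkd1-Ds. It passed no threshold in any setting, with limma adjusted p from 0.255 to 1.00. Without the 7 genes whose level in 1 genotype decided membership, 2 were called in nkd2-Ds against WT. Calls among the 61 genes ran from 8 to 15, 3 to 9 and 8 to 11 without single libraries, and those among the 47 steep genes from 0 to 7, 0 to 3 and 0 to 2. In nkd1-Ds against WT the steep calls were 2 with a pseudocount of 0.1 RPKM, 2 (bap1b and GRMZM2G058703, both higher) after scaling by total reads, and 10 with only the 8 libraries compared; the cause was not tested. Scaling by total reads also moved the split of the 61 genes called there from 7 higher and 7 lower to 12 higher and 1 lower.

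Without nkd2-Ds replicate 1, limma called bap1b, GRMZM2G058703 and GRMZM2G121137 higher in nkd2-Ds than in WT, and without replicate 4 it called GRMZM2G107931, GRMZM2G115340 and GRMZM2G179248 lower. For GRMZM2G107931 that call is a description, since its WT level decided membership. So are the calls of bap1b and GRMZM2G058703, here and after scaling by total reads, as both passed the floor through the mutants. Without WT replicate 4 limma called betl3, GRMZM2G175101 and GRMZM2G158400 lower in nkd1-Ds, the last with a mean of 4.49 RPKM there, under the floor. Of the 26 calls over the comparisons, 16 held in every setting run, all on flat genes, and none reversed. The 16 include those of bz2 in nkd2-Ds against WT and nkd1-Ds, and of GRMZM2G081970 in nkd1-Ds against WT. As these genes passed the floor through the genotype where they are high, those calls are a description. Same-numbered libraries correlated at -0.28 to 0.12, so the numbers were not taken to pair them. With a replicate block 11, 4 and 8 of the 61 genes were called, and betl9 differed by -0.37, -0.28 and 0.09 as without it. Genes with under 20 reads in a library are limited by depth there.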
